A study of Mus musculus with 2 samples.

Results

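The urea cycle was followed here through 8 of the 32285 genes counted in 2 mouse liver libraries: the matrix enzymes Nags, Cps1 and Otc, the cytosolic enzymes Ass1, Asl and Arg1, and the mitochondrial carriers Slc25a15 and Slc25a13. These genes were taken for their place in the pathway, and all 8 were found in the files. The quantity of interest is how each transcript is shared between large barcodes, which are rich in nuclear RNA, and small barcodes, which are rich in cytoplasmic RNA. Each library is a droplet-based 5-prime single-cell RNA library (10x Genomics) from the liver of 1 mouse with floxed Glul alleles, bearing no tumour and 11 weeks old when the virus was given. The control mouse received AAV8-GFP, and the other mouse (GS_KO) received AAV8-Cre, which deletes Glul, the gene of glutamine synthetase. Cells were taken 2 weeks later by perfusion with collagenase II at 0.3 mg/mL, and hepatocytes were joined with purified non-parenchymal cells. AAV8 is a viral vector that infects hepatocytes well, and the labels do not name the promoter that drives Cre.

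The urea cycle turns ammonia into urea and is carried out in full almost only by hepatocytes. Nags makes N-acetylglutamate, the obligate activator of Cps1, which fixes ammonia as carbamoyl phosphate inside the mitochondrion. Otc joins this to ornithine to give citrulline, which leaves for the cytosol, where Ass1 adds aspartate, Asl splits the product to arginine and fumarate, and Arg1 releases urea and ornithine. Slc25a15 exchanges ornithine for citrulline across the inner mitochondrial membrane, and Slc25a13 (citrin) exports the aspartate that Ass1 uses. The cycle is strongest in periportal hepatocytes, while glutamine synthetase, the other sink for ammonia, is confined to the hepatocytes around the central vein.

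Barcodes were placed in 3 size classes by their number of UMIs (unique molecular identifiers, each standing for 1 captured transcript): small (200 to under 400 UMIs), middle (500 to under 1000) and large (1000 or more). In the control library these classes held 116552, 11989 and 1703 barcodes, and in the GS_KO library 143687, 10037 and 1834. They summed to 38070357, 7923353 and 2182260 UMIs in the control library, and to 43036904, 6699943 and 2443469 in the GS_KO library. Levels are given as CPM, counts per 1000000 UMIs of the class. The small class held 70.2% of control and 81.7% of GS_KO barcodes. Its median size was 335 and 300 UMIs, against 352 and 304 over all barcodes of each library. How many small barcodes are droplets that held only free RNA, pooled from all cells, was not tested. The contrast of large with small barcodes is therefore not one of nucleus with cytoplasm in the same cells. The classes were formed on total UMIs alone, and their make-up differed. Malat1, a transcript kept in the nucleus, stood at 1709 CPM in small and 19613 CPM in large control barcodes, and at 1365 and 37630 CPM in GS_KO barcodes. Mitochondrial genome transcripts made up 9.32% and 3.64% of UMIs in the control classes and 8.38% and 2.41% in the GS_KO classes. All 8 hepatocyte markers were present in every class, and their summed level was 83172 CPM in small and 43432 CPM in large control barcodes, against 99586 and 42150 CPM in GS_KO barcodes. Glul stood at 113 CPM in small and 124 CPM in large control barcodes, and at 9.78 and 31.5 CPM in GS_KO barcodes. The deleted exons are not named, so this is a limited check of the deletion.

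With a single mouse and library on each side, no test between the mice could be run. Values below carry exact 95% Poisson intervals for a level and exact conditional intervals for a ratio. Such intervals hold counting error alone, without the spread between mice, digestions or preparations. A gene is called when its ratio is past 2-fold. The libraries share 8108 barcode sequences, 1 of them large in both. All 8 genes had at least 20 UMIs in each comparison, the minimum used for every gene. Fewer cells of a type and less RNA per cell cannot be told apart in sums of this kind.

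Within the control library, the urea cycle genes did not share 1 direction in the contrast of large with small barcodes. Cps1 and Slc25a13 were concentrated in large barcodes, Nags, Otc and Ass1 in small ones, and Arg1 stood at almost the same level in both. Slc25a13 stood at 199 CPM (194 to 203) in small and 977 CPM (936 to 1019) in large barcodes, a log2 ratio of 2.30 (2.23 to 2.37). Cps1 stood at 2530 CPM (2514 to 2546) in small barcodes, 4470 CPM (4423 to 4517) in middle barcodes and 9261 CPM (9134 to 9390) in large ones. Its log2 ratio of large over small barcodes was 1.87 (1.85 to 1.89). These 2 of 8 genes were past 2-fold higher, and 36.7% of the 12330 genes tested were too. None of the 8 was past 2-fold lower, against 11.5% of genes. The median log2 ratio was 0.26 over the 8 genes and 0.43 over all genes tested. Ranked among all genes tested, the members ran from Otc, with 15.9% of genes below it, to Slc25a13, with 85.8%.

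**Figure D1:**
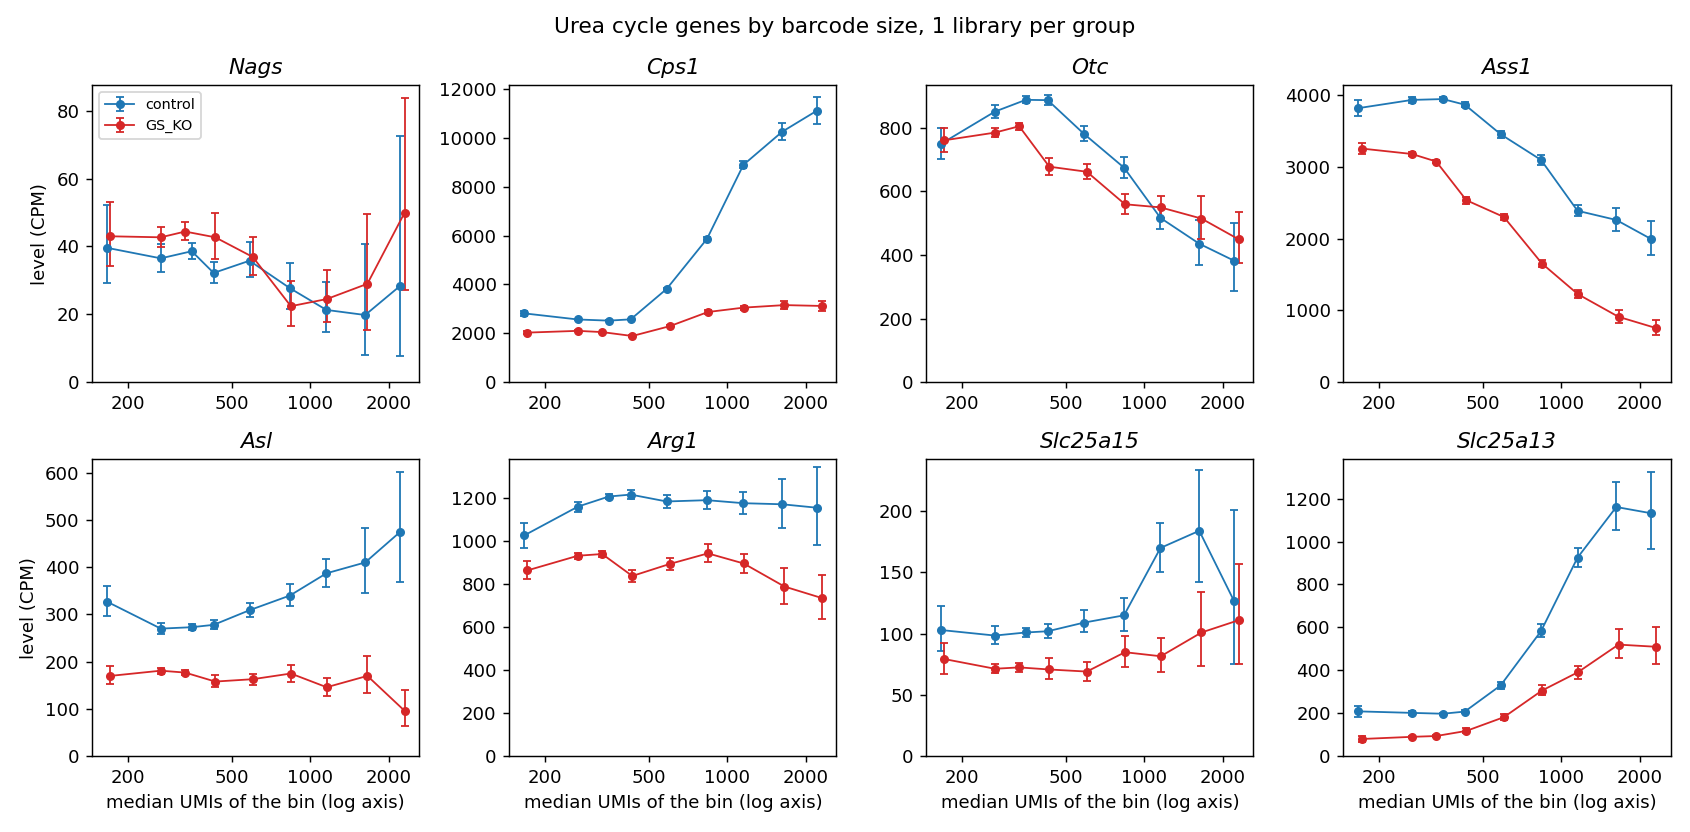
Level in CPM (vertical axis, from 0) of each gene in 9 bins of barcode size, placed at the median UMIs of the bin on a log axis, with exact 95% Poisson intervals as bars. In the control library Cps1 runs from 2520 CPM at 300 to under 400 UMIs to 11112 CPM at 2000 UMIs or more, while in the GS_KO library it runs from 2051 to 3121 CPM, and Ass1 is lower in larger barcodes of both libraries.

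The other matrix enzymes and the first cytosolic enzyme leaned the opposite way from Cps1. Otc stood at 879 CPM (869 to 888) in small and 494 CPM (465 to 524) in large control barcodes, a log2 ratio of -0.83 (-0.92 to -0.74). Ass1 stood at 3942 CPM (3922 to 3962) and 2342 CPM (2278 to 2407), a log2 ratio of -0.75 (-0.79 to -0.71). Nags, the least counted of the set with 47 UMIs in large control barcodes, stood at 38.2 CPM (36.2 to 40.2) and 21.5 CPM (15.8 to 28.6), a log2 ratio of -0.81 (-1.28 to -0.41). All 3 were thus lower in large barcodes without reaching 2-fold. They passed 2-fold when ratios were centred on the median of genes with at least 100 UMIs, which lay at 0.35 in this library, with Otc at -1.18, Ass1 at -1.10 and Nags at -1.16.

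The late cytosolic enzymes and the ornithine carrier lay between. Arg1 stood at 1196 CPM (1185 to 1207) in small and 1173 CPM (1128 to 1219) in large control barcodes, a log2 ratio of -0.03 (-0.09 to 0.03). Its level ran only from 1025 to 1215 CPM over the 9 size bins, the flattest course of the set in that library. Asl stood at 272 CPM (267 to 277) and 396 CPM (370 to 424), a log2 ratio of 0.54 (0.44 to 0.64). Slc25a15 stood at 101 CPM (97.5 to 104) and 169 CPM (152 to 187), a log2 ratio of 0.75 (0.59 to 0.90). Both stayed under 2-fold, and at 0.19 and 0.40 after centring.

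In the GS_KO library the order of the genes was much the same but Cps1, Asl and Ass1 sat lower in the contrast. Slc25a13 stood at 92.5 CPM (89.7 to 95.5) in small and 428 CPM (403 to 455) in large barcodes, a log2 ratio of 2.21 (2.11 to 2.31), close to its control value. Cps1 stood at 2073 CPM (2060 to 2087) in small, 2475 CPM (2438 to 2513) in middle and 3080 CPM (3010 to 3150) in large barcodes. Its log2 ratio of 0.57 (0.54 to 0.60) compares with 1.87 in the control library. After centring on the median of genes with at least 100 UMIs the values were 0.05 and 1.52. Ass1 stood at 3119 CPM (3103 to 3136) in small and 1115 CPM (1073 to 1157) in large barcodes, a log2 ratio of -1.48 (-1.54 to -1.43). Asl stood at 179 CPM (175 to 183) and 144 CPM (130 to 160), a log2 ratio of -0.31 (-0.47 to -0.15), so that its direction was opposite to the control library.

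The remaining genes differed less between the libraries in this contrast. Otc had a log2 ratio of -0.58 (-0.66 to -0.50), from 795 CPM in small to 531 CPM in large GS_KO barcodes. Nags lay at -0.62 (-1.0 to -0.28), from 43.7 to 28.2 CPM, and turned to 0.24 when only barcodes of 2000 UMIs or more were taken as large. Arg1 lay at -0.13 (-0.19 to -0.06), from 935 to 857 CPM. Slc25a15 lay at 0.30 (0.09 to 0.50), from 72 to 88.4 CPM. It lay at -0.22 when centred on the median of genes with at least 100 UMIs, which was 0.52 in this library. In all, 1 of 8 genes (Slc25a13) was past 2-fold higher beside 41.1% of the 13208 genes tested, and 1 (Ass1) was past 2-fold lower beside 13.2%.

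The steps between neighbouring classes show where along barcode size the levels part. From small to middle control barcodes 1 of 8 genes (Slc25a13, at 1.05) was past 2-fold higher, beside 25.2% of genes, and none lower, beside 0.463%. From middle to large control barcodes Cps1 (1.05) and Slc25a13 (1.25) were past 2-fold higher, beside 17.6% of genes, and none lower, beside 6.62%. In the GS_KO library the first step again held 1 gene past 2-fold higher (Slc25a13, at 1.26) beside 36.0% of genes and none lower beside 0.533%, and the second step held none, beside 10.7% higher and 11.5% lower. Cps1 there lay at 0.26 over the first step and 0.32 over the second, against 0.82 and 1.05 in the control library.

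The size contrast differed between the libraries most for Cps1. The GS_KO log2 ratio minus the control one was -1.30 for Cps1, -0.85 for Asl, -0.73 for Ass1 and -0.45 for Slc25a15. It was -0.10 for Arg1, -0.09 for Slc25a13, 0.19 for Nags and 0.25 for Otc. Over the 12122 genes tested in both libraries the middle range of this difference was -0.28 to 0.51 with a median of 0.09, and 3.41% of genes lay below Cps1, 7.18% below Asl and 8.98% below Ass1. The difference could not be tested with 1 library per group.

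**Figure D2:**
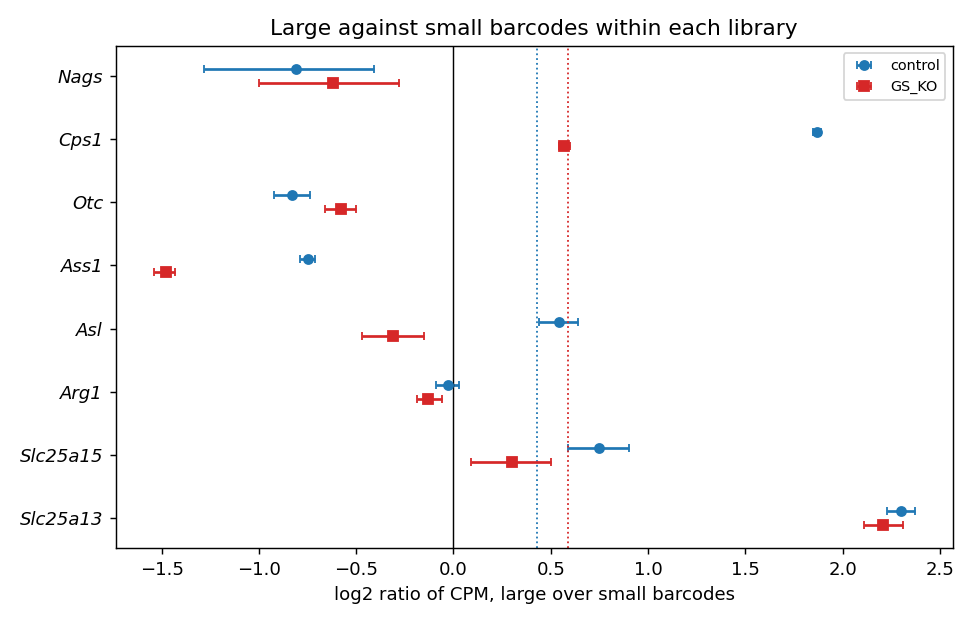
Log2 ratio of CPM in large over small barcodes (horizontal axis) for each gene, control as circles and GS_KO as squares, with exact 95% conditional intervals; dotted lines mark the median of all genes tested, 0.43 for control and 0.59 for GS_KO. Slc25a13 lies at 2.30 and 2.21, Cps1 at 1.87 and 0.57, and Ass1 at -0.75 and -1.48.

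The genes also differ in length on the chromosome, a property that the choice of genes did not use. Per the GENCODE M21 annotation of mm10, Slc25a13 spans 176.0 kb (chr6:6041218-6217173, minus strand) and Cps1 108.2 kb (chr1:67123026-67231259, plus strand). Otc spans 68.7 kb (chrX:10252305-10321024, plus strand) and Ass1 50.5 kb (chr2:31470207-31520672, plus strand). The shorter genes are Slc25a15 with 23.0 kb (chr8:22375551-22398597, minus strand), Asl with 18.0 kb (chr5:130011258-130029247, minus strand), Arg1 with 12.3 kb (chr10:24915221-24927484, minus strand) and Nags with 4.0 kb (chr11:102145513-102149477, plus strand). Exons fill 2.16% of Slc25a13, 5.13% of Cps1, 4.78% of Ass1 and 6.17% of Otc, against 18.2% of Arg1 and 71.6% of Nags. No annotated gene overlaps these loci except Gm11586, an antisense gene across Nags.

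Over all genes, those with a longer span stood higher in large barcodes. No source used here states whether reads from introns were counted. The trend by span can depend on that, and this was not tested. In the control library the median log2 ratio was -0.80 for 1489 genes under 5 kb, 0.03 for 2360 genes of 10 to 20 kb, 1.32 for 1783 genes of 50 to 100 kb and 2.01 for 1042 genes of 100 to 200 kb. In the GS_KO library the corresponding medians were -0.71, 0.18, 1.47 and 2.07. Spearman's rho of span and ratio was 0.58 over 12327 control genes and 0.53 over 13204 GS_KO genes, as a description over genes that share the same barcodes and depth. Most of the urea cycle genes followed this course in the control library: 46.7% of genes of its span class lay below Cps1, 59.2% below Slc25a13, 55.7% below Slc25a15, 48.4% below Arg1 and 49.1% below Nags.

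Otc and Ass1 did not follow it. With spans of 50 to 100 kb they lay under all but 1.91% and 2.36% of the 1783 genes of that class in the control library, and under all but 4.43% and 0.949% of the 1897 in the GS_KO library. Their transcripts were thus placed in small, cytoplasm-rich barcodes like those of genes under 5 kb. Ass1, at 50.5 kb, lies at the lower edge of its span class, so its rank depends partly on that limit. For genes of 20 to 50 kb the lower quartile was -0.15 (control) and -0.06 (GS_KO), against -0.75 and -1.48 for Ass1. Cps1 was near the middle of its span class in the control library and below all but 17.3% of it in the GS_KO library, while Slc25a13 stood above 54.3% of that class.

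**Figure D3:**
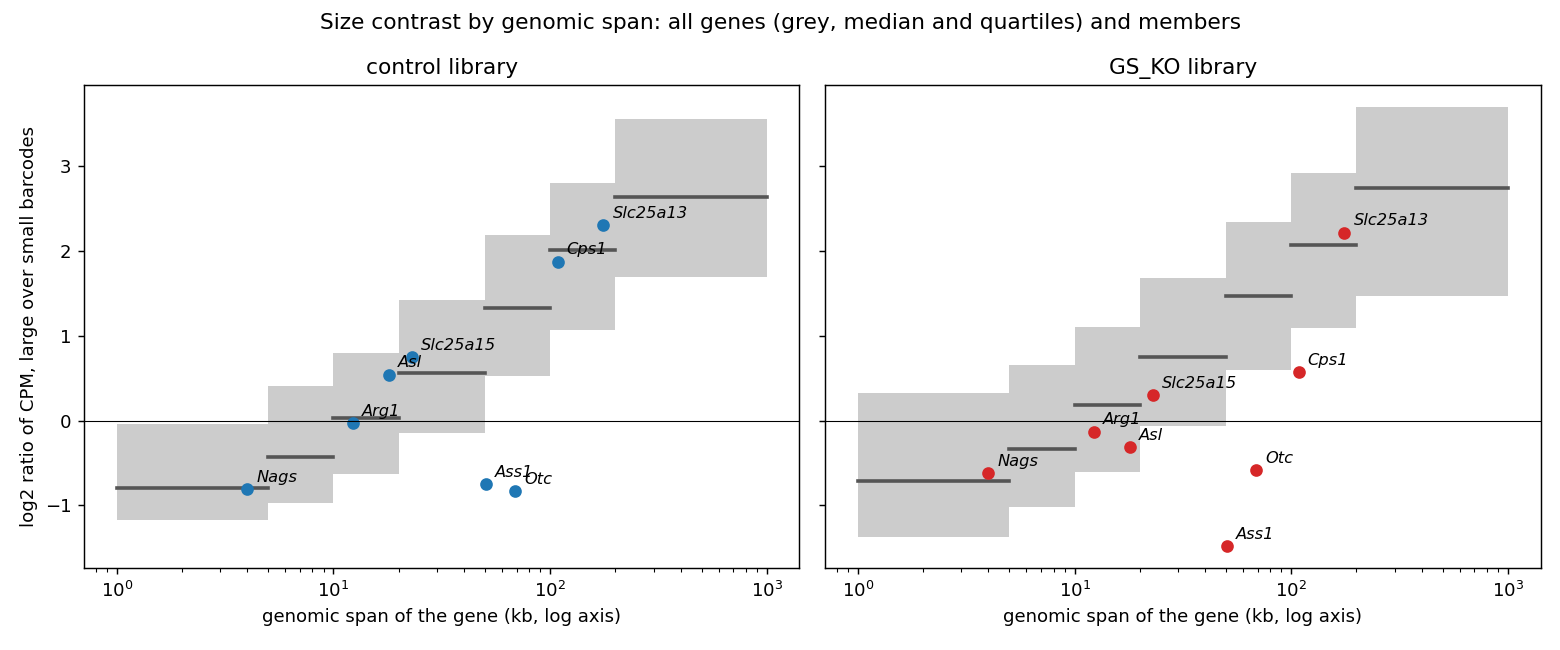
Log2 ratio of CPM in large over small barcodes (vertical axis) against genomic span in kb (log axis) in each library; grey boxes show the quartiles and dark lines the medians of all genes in 7 span classes (the outer classes are open and drawn to the edge), and points are the 8 genes. Otc and Ass1 lie far below the grey box of their class in both libraries, and Cps1 lies at 1.87 (control) and 0.57 (GS_KO).

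The sequences ahead of the transcription starts are shown for the 3 long genes that part most clearly in this contrast and for which RefSeq (GRCm38.p6) entries were at hand. A 5-prime library is designed to read transcripts near their starts. Where the counted reads lay was not examined. Each run is the 250 bases before the RefSeq start, 5′ to 3′ on the gene's own strand, with capitals marking the motifs found in it. For Ass1 the RefSeq start lies downstream of the GENCODE start given above, so the last 63 bases of its window, from the GGGCGG on, lie inside the gene as GENCODE draws it.
Slc25a13 (chr6:6217174-6217423, minus strand): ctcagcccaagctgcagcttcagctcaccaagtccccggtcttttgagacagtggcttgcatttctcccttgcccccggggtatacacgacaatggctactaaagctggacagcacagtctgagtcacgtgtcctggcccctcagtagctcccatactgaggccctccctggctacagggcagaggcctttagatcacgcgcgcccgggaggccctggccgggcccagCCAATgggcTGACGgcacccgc
Otc (chrX:10252055-10252304, plus strand): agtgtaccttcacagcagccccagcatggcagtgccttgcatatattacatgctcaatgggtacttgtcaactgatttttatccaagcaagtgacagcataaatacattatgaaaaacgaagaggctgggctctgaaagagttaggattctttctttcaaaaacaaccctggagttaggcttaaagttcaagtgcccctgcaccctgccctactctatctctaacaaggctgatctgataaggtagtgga
Ass1 (chr2:31470020-31470269, plus strand): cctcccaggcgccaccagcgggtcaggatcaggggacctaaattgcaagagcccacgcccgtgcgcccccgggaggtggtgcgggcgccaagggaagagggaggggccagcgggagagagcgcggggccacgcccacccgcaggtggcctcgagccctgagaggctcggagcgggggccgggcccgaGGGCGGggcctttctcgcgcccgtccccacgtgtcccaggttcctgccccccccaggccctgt
A script looked on both strands for 6 motifs, and their shares are over 32851 RefSeq windows of the same length. The TATA box TATAAA occurs in 12.4% of windows, the CCAAT box in 33.8% and the GC box GGGCGG in 32.7%. The C/EBP motif TTGCNNAA occurs in 9.56%, the cAMP response element TGACGTCA in 1.55%, and its first part TGACG, which it contains, in 17.8%. Slc25a13 has a CCAAT that begins 22 bases before the start and a TGACG that begins 13 bases before it, Ass1 has a GGGCGG that begins 63 bases before its RefSeq start, and none of the motifs is spelled out in the Otc window. G and C make up 62.8% of the Slc25a13 window, 43.6% of Otc and 75.6% of Ass1, against a median of 52.4% over all windows. The Otc and Ass1 windows are thus unlike in composition. Whether composition or motifs of the window relate to the size contrast was not tested.

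Between the mice, the urea cycle genes stood lower in the GS_KO library, and the distance was larger in larger barcodes for most of them. The change in distance from small to large barcodes restates the difference in size contrast given above, since both come from the same sums. In small barcodes Slc25a13 was the one gene past 2-fold, with 199 CPM for control and 92.5 CPM for GS_KO, a log2 ratio of -1.10 (-1.16 to -1.05). That is 1 of 8 past 2-fold lower, beside 4.25% of the 13688 genes tested, and none past 2-fold higher, beside 13.2%. The other ratios in small barcodes were -0.61 (-0.65 to -0.56) for Asl, -0.48 (-0.55 to -0.41) for Slc25a15, -0.35 (-0.37 to -0.33) for Arg1 and -0.34 (-0.35 to -0.33) for Ass1. Cps1 lay at -0.29 (-0.30 to -0.27) and Otc at -0.14 (-0.17 to -0.12). Nags was the one gene above 0, at 0.19 (0.09 to 0.29).

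In large barcodes 4 of 8 genes, Cps1, Asl, Slc25a13 and Ass1, were past 2-fold lower in the GS_KO library. Of the 10192 genes tested there, 5.6% were past 2-fold lower and 12.8% past 2-fold higher, and none of the 8 was in the latter. Cps1 lay at -1.59 (-1.63 to -1.55), or 9261 against 3080 CPM. Asl lay at -1.45 (-1.64 to -1.28), or 396 against 144 CPM. Slc25a13 lay at -1.19 (-1.30 to -1.08) and Ass1 at -1.07 (-1.14 to -1.0). The ornithine carrier Slc25a15 lay just short of 2-fold at -0.93 (-1.18 to -0.69), and Arg1 at -0.45 (-0.54 to -0.37).

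Otc and Nags were not separated from 0 there. Otc measured 494 CPM (control) and 531 CPM (GS_KO), a log2 ratio of 0.10 (-0.01 to 0.22), and Nags at 21.5 and 28.2 CPM, a log2 ratio of 0.39 (-0.16 to 0.96). Both intervals include 0, and the Nags value rests on 47 and 69 UMIs. Over the 8 genes the median log2 ratio was -0.35 in small, -0.63 in middle and -1.0 in large barcodes, against -0.01, 0.15 and 0.04 over all genes tested. The 8 transcripts together made up 0.916% of UMIs in small and 1.48% in large control barcodes, and 0.731% and 0.627% in GS_KO barcodes.

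**Figure D4:**
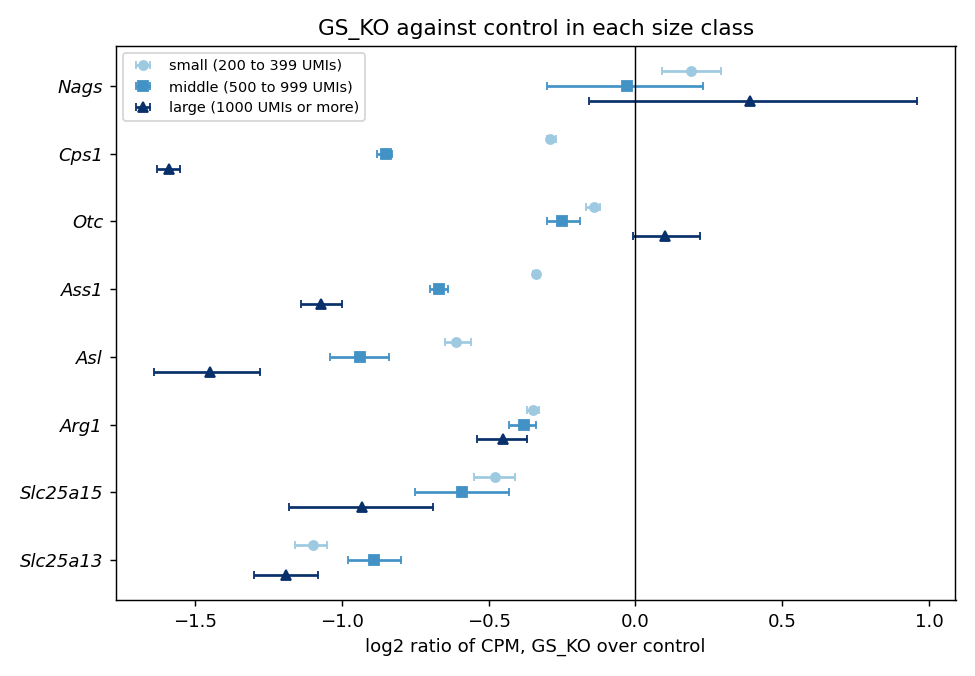
Log2 ratio of CPM, GS_KO over control (horizontal axis), for each gene in small (circles), middle (squares) and large barcodes (triangles), with exact 95% conditional intervals; 1 library per group. Cps1 runs from -0.29 in small to -1.59 in large barcodes, Slc25a13 lies between -0.89 and -1.19 in all 3 classes, and the intervals of Otc and Nags in large barcodes include 0.

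Middle barcodes lay between the outer classes for Cps1 at -0.85 (-0.88 to -0.83), Asl at -0.94 (-1.04 to -0.84), Ass1 at -0.67 (-0.70 to -0.64) and Slc25a15 at -0.59 (-0.75 to -0.43). None of the 8 was past 2-fold there, beside 3.7% of 12349 genes lower and 15.6% higher. Slc25a13, at -0.89 (-0.98 to -0.80), was less far apart there than in small or large barcodes. Malat1 stood at 7812 CPM in control and 17706 CPM in GS_KO middle barcodes. These were not matched on nuclear RNA, so the ratios in middle barcodes can also hold a difference in nuclear content. Kupffer markers were higher in the GS_KO library, with all 10 detected in each class and a summed level of 271 CPM in control and 1805 CPM in GS_KO middle barcodes, 86.6 and 549 CPM in large ones and 116 and 703 CPM in small ones. Barcodes with 2 or more UMIs of non-parenchymal markers made up 9.45% of large control and 19.5% of large GS_KO barcodes. With these left out, Cps1 lay at -0.80 in middle and -1.58 in large barcodes, Asl at -0.89 and -1.47, Ass1 at -0.63 and -1.07, and Slc25a13 at -0.81 and -1.16.

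Large GS_KO barcodes held more Malat1 than large control ones, so the libraries were also compared at like shares of Malat1 and Neat1, in 5 ranges chosen after the data were seen. Cps1 lay between -1.33 and -1.87 in all 5 ranges. At 2 to 3% nuclear RNA, with 606 control and 341 GS_KO barcodes, Cps1 stood at 10591 and 3134 CPM, a log2 ratio of -1.76 (-1.84 to -1.67), Asl at 422 and 156 CPM (-1.43, -1.83 to -1.06), and Slc25a13 at 1088 and 367 CPM (-1.56, -1.82 to -1.32). Slc25a13 was past 2-fold in all 5 ranges, and Asl in all but the lowest, where it lay at -0.78. Ass1 lay between -0.26 and -0.94 in the 4 lower ranges and at -1.46 at 4% or more, so it was past 2-fold only in the highest. That range has no upper limit and was not closely matched. It held 46 control barcodes with 4.53% nuclear RNA and 768 GS_KO barcodes with 5.22%. Slc25a15 was past 2-fold in 2 ranges, at -1.85 and -1.37, and under it in the other 3, at -0.63, -0.98 and -0.86. The lowest range held 60 GS_KO barcodes, with only 5 UMIs of Slc25a13 and 2 of Slc25a15, so both values there are weakly founded. At 2 to 3% nuclear RNA Otc stood at 443 and 613 CPM, a log2 ratio of 0.47 (0.24 to 0.70), but it lay at -0.08 below 1% and -0.21 at 4% or more.

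The nuclear share within the large barcodes also set the genes apart. When large barcodes of each library were ranked on Malat1 and Neat1 and divided into 3 equal groups, Cps1 in the control library stood at 6908, 9999 and 10671 CPM from the lowest to the highest group. The highest group differed from the lowest by a log2 ratio of 0.63 (0.58 to 0.68), and Slc25a13 did by 0.62 (0.46 to 0.78). Otc and Ass1 leaned the opposite way, at -0.31 (-0.52 to -0.10) and -0.21 (-0.30 to -0.11), and Ass1 stood at 2538 CPM in the lowest and 2202 CPM in the highest group. Among GS_KO barcodes Cps1 stood at 3031, 3248 and 2955 CPM, a log2 ratio of -0.04 (-0.12 to 0.05), with an interval that includes 0, while Slc25a13 lay at 0.32 (0.10 to 0.55) and Ass1 at -0.51 (-0.64 to -0.37). The lowest control group held 1% nuclear RNA and the lowest GS_KO group 2.21%, so a group of one library does not correspond to that of the other.

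The enzymes known as periportal followed the periportal markers within the large barcodes of both libraries. Barcodes with fewer than 2 UMIs of non-parenchymal markers were ranked by the share of 15 periportal minus 15 pericentral markers, none of them a gene of the set, and divided into 5 equal groups of 308 or 309 control and 295 or 296 GS_KO barcodes. The groups are ranges of a score, not cell types, and are not matched between the libraries. Arg1 stood at 829, 1135, 1213, 1316 and 1432 CPM from the most pericentral to the most periportal control group, a log2 ratio of 0.79 (0.59 to 0.99) between the ends. Among GS_KO barcodes it stood at 510, 638, 819, 1167 and 1371 CPM, a log2 ratio of 1.43 (1.19 to 1.67). Arg1 levels were thus close in the groups ranked most periportal and further apart in those ranked most pericentral, but these groups need not be the same zones. In large barcodes the pericentral markers summed to 9450 CPM (control) and 4982 CPM (GS_KO), and the periportal ones to 8451 and 6312 CPM.

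Cps1 ran from 7538 to 10019 CPM between the end groups of the control library, a log2 ratio of 0.41 (0.34 to 0.48), and from 2320 to 3934 CPM among GS_KO barcodes, a log2 ratio of 0.76 (0.64 to 0.88). Ass1 differed by 0.52 (0.38 to 0.65) and 0.32 (0.13 to 0.52), Asl by 0.63 (0.28 to 0.98) and 0.70 (0.09 to 1.34), and Otc by 0.38 (0.09 to 0.68) and 0.52 (0.24 to 0.81). The carriers were not higher in the periportal groups of both libraries: Slc25a13 lay at -0.15 (-0.37 to 0.06) for control and -0.41 (-0.73 to -0.10) for GS_KO, and Slc25a15 at 0.21 (-0.32 to 0.75) and -0.19 (-0.90 to 0.50). With each marker counted equally, an alternative chosen after the data were seen, Slc25a13 lay at -0.37 (-0.57 to -0.16) and -0.26 (-0.58 to 0.05) and Slc25a15 at 0.25 (-0.26 to 0.76) and -0.71 (-1.44 to -0.02), so which carrier intervals include 0 depends on the score. Nags had intervals that include 0 in both libraries. Even in the GS_KO group where it was highest, Cps1 at 3934 CPM lay below the lowest control group, at 7538 CPM.

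**Figure D5:**
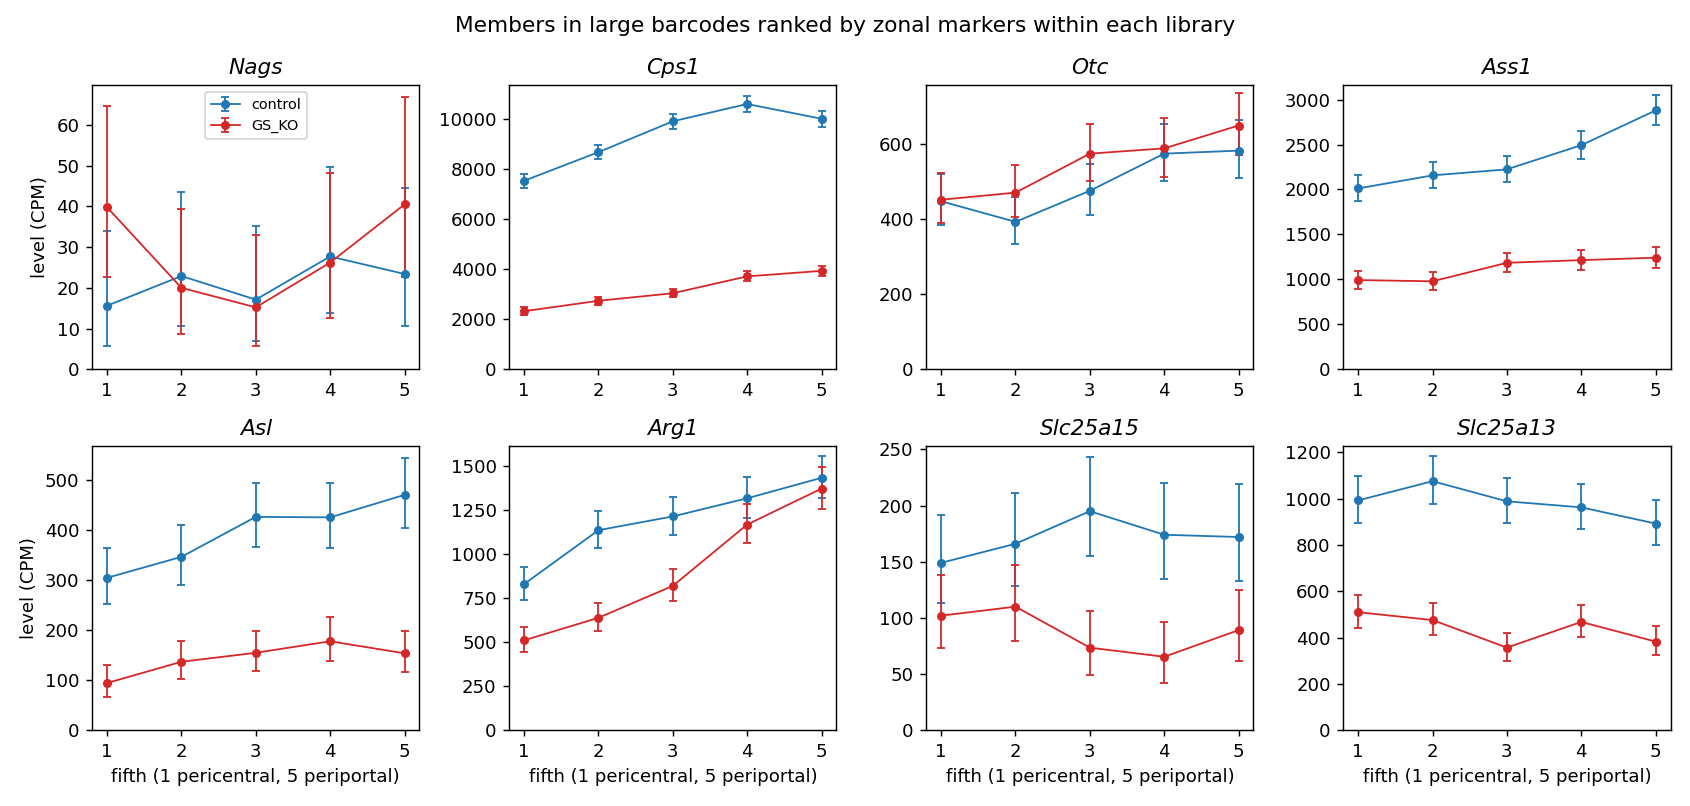
Level in CPM (vertical axis, from 0) of each gene in 5 equal groups of the large barcodes, from the most pericentral (1) to the most periportal (5) by zonal markers ranked within each library, with exact 95% Poisson intervals. Arg1 runs from 829 to 1432 CPM (control) and from 510 to 1371 CPM (GS_KO), and Cps1 levels do not overlap between the libraries.

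Macrophages lack a full urea cycle, so barcodes of at least 500 UMIs with Kupffer markers were used to gauge free RNA. There were 263 such Kupffer-like barcodes in the control library (median 595 UMIs, against 664 in the other barcodes) and 1261 in the GS_KO library (610 against 678). Their Cps1 level was 62% of that in the other control barcodes and 63.5% in the GS_KO library. For Arg1 the values were 54% and 50.8%, for Otc 73.2% and 56.6%, and for albumin 75.5% and 72.8%. Among barcodes of at least 1000 UMIs, 21 control and 132 GS_KO barcodes were Kupffer-like, and their Cps1 level was 89.5% and 86.8% of that in the others. Otc stood there at 135% (18 UMIs) and 72.2%, Slc25a13 at 133% (35 UMIs) and 90.9%, Slc25a15 at 131% (6 UMIs) and 117%, and Arg1 at 53.2% and 65.2%. The intervals of the control ratios of Cps1, Otc, Ass1, Asl and both carriers include equal levels. No lower level in large Kupffer-like control barcodes was detectable for these genes. Nags had 0 UMIs there, and the log2 ratio of Arg1 was -0.87 (-1.69 to -0.23). Barcodes with Kupffer markers thus also held urea cycle transcripts, whether from free RNA or from hepatocytes in the same droplet, which cannot be told apart here. Single barcodes with a UMI of these genes are not read as cells expressing them. Large Kupffer-like barcodes also held less nuclear RNA than the others, at 1.5% against 2.07% (control) and 2.27% against 3.98% (GS_KO). With the small-barcode profile taken off the large sums, 27.5% of control and 22.8% of GS_KO UMIs, the GS_KO against control log2 ratios in large barcodes were -1.81 for Cps1, -1.73 for Ass1, -1.72 for Asl and -1.27 for Slc25a13, and Slc25a15 at -1.06 was then past 2-fold.

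Of 14 linked genes for ammonia, glutamate and transport, 13 could be compared in large barcodes. Oat, Glul, Slc7a2 and Got1 were past 2-fold lower in the GS_KO library, beside 5.6% of all genes tested, and none past 2-fold higher, beside 12.8%. Glul is the gene that Cre deletes, so its place among them was set by the design. Slc7a2, an arginine and ornithine transporter, stood at 425 and 2139 CPM in small and large control barcodes and at 185 and 873 CPM in GS_KO barcodes. It was thus like Slc25a13 both in its size contrast (2.33 and 2.24) and in its difference between the mice (-1.20 in small and -1.29 in large barcodes). Slc25a12, the aspartate carrier related to citrin, went the opposite way from Slc25a13, at 23.8 and 47.1 CPM in large barcodes, a log2 ratio of 0.97 (0.50 to 1.48). Got1, the cytosolic transaminase of the aspartate shuttle, lay at -1.22 (-1.48 to -0.96), and Got2, its mitochondrial partner, at -0.43 (-0.60 to -0.25).

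Oat, which breaks down ornithine, lay at -2.89 (-3.24 to -2.57), from 265 to 35.6 CPM. Glud1, which releases ammonia from glutamate, lay at -0.91 (-0.99 to -0.84), Car5a, which supplies bicarbonate to Cps1, at -0.75 (-0.99 to -0.51), and Slc38a3, a glutamine transporter, at -0.33 (-0.44 to -0.23). The periportal glutaminase Gls2 lay at -0.30 (-0.56 to -0.03). The intervals of Slc25a22, a glutamate carrier, Sirt5, a deacylase of Cps1, and Aqp9, a channel for glycerol and urea, included 0. Arg2, the mitochondrial arginase, had 1 and 2 UMIs in large barcodes and was not compared there. In small barcodes it had 1 control and 26 GS_KO UMIs, a log2 ratio of 3.97 (1.92 to 9.88). It was the 1 of 14 linked genes past 2-fold higher there, beside 13.2% of all genes tested. Oat, Glul and Slc7a2 were the 3 past 2-fold lower, beside 4.25%. Which cells held the Arg2 UMIs was not tested. In small barcodes Kupffer markers stood at 116 CPM (control) and 703 CPM (GS_KO), and bile duct markers at 2.21 and 22.6 CPM.

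Of 5 regulators of hepatocyte metabolism, none was past 2-fold between the mice in large barcodes, beside 5.6% of all genes lower and 12.8% higher. Hnf4a, a nuclear receptor that sustains hepatocyte genes, lay at -0.75 (-0.92 to -0.57), Cebpa at -0.65 (-0.97 to -0.33) and Cebpb at -0.45 (-0.61 to -0.28). Gcgr, the glucagon receptor, lay at 0.60 (0.38 to 0.84), and Nr3c1, the glucocorticoid receptor, at -0.08 (-0.23 to 0.07). In small barcodes Cebpa lay at -1.02 (-1.08 to -0.97) and Cebpb at -1.26 (-1.30 to -1.23), and these 2 of 5 were past 2-fold lower, beside 4.25% of all genes tested.

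The genes whose levels ran most like each member were sought over the 6 sums (2 libraries in 3 classes), as the smallest root mean square difference of log2 CPM centred on each gene's mean. Of 5129 other genes with at least 50 UMIs in every sum, the nearest to Cps1 were Pklr (0.106), the liver pyruvate kinase, and Tsku (0.153). Pklr stood at 33.3 and 140 CPM in small and large control barcodes and at 32 and 40.1 CPM in GS_KO barcodes. The nearest to Otc were Gjb1 (0.047) and Selenbp1 (0.048), to Ass1 Grpel1 (0.051) and Sra1 (0.057), and to Arg1 Hsd17b4 (0.041) and Nedd4 (0.044). Asl ran closest to Me1 (0.085) and Fh1 (0.125), the fumarase Fh1 being the enzyme that uses the fumarate released by Asl. Akr1d1 (0.049) was among the 2 genes nearest to Slc25a15, and Slc7a2 (0.092) among the 2 nearest to Slc25a13. Nags fell short of the minimum with 47 UMIs in its lowest sum.

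The members were also compared with each other by the same measure. The closest pair was Asl with Slc25a15 at 0.26, where Slc25a15 ranked 44 of 5129 for Asl, and Cps1 had Slc25a15 as its nearest member at rank 100. Slc25a13 and Ass1 were the furthest apart, at 1.40, with Ass1 at rank 4316. For consecutive enzymes of the cycle the difference was 0.95 between Cps1 and Otc, 0.40 between Otc and Ass1, 0.53 between Ass1 and Asl and 0.35 between Asl and Arg1.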

How the data were processed

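The authors deposited 1 matrix of raw UMI counts per library, which per the file headers came from Cell Ranger 8.0.0, aligned to mm10 per the submitters' processing notes. No source used here states whether intronic reads were counted or how barcodes were selected. The labels name single cells in one field and nuclei in another. The libraries hold 166037 and 175937 barcodes. No barcode was removed as a doublet or for its mitochondrial share.

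UMIs were summed over the barcodes of each size class and scaled to CPM. Log2 ratios had 0.5 counts added to each sum, and genes with at least 20 UMIs in both sums together gave the background. Intervals are exact at 95%. Sums and ratios were tested on simulated data. The genes, lists and size classes were chosen with earlier results of these data known. Named genes were the 8 members, 14 linked genes, 5 regulators, and the 2 nearest genes of each member, of which 1 each for Slc25a15 and Slc25a13 is not reported here. Kupffer-like barcodes held at least 3 UMIs of at least 2 Kupffer markers. Of the genes in the files, 99.8% matched the GENCODE M21 annotation by identifier. RefSeq promoter windows were found for 5 members and not for Cps1, Asl and Arg1. Alternatives changed the size limits, the CPM denominator, centring, barcode weights, other cell types, free RNA, the added counts and the fold. Scripts ran on Python 3.11.15 with scipy 1.17.1, numpy 2.4.6, pandas 2.3.3 and, for plots, matplotlib 3.10.9.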

Additional observations from a re-analysis of the deposited data

Results flagged for a closer look

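Asl was the one gene of the 8 whose contrast of large with small barcodes had opposite directions in the libraries: a log2 ratio of 0.54 (control) and -0.31 (GS_KO). With 1 library per group this difference was not tested.

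Barcodes of 400 to under 500 UMIs, which lie outside the 3 size classes, held more Nags in the GS_KO than in the control library, at 42.7 and 32.2 CPM, a log2 ratio of 0.41. Malat1 stood there at 6075 CPM (GS_KO) and 2212 CPM (control), so the nuclear content of these barcodes was unlike.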

How the results depend on the processing

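No gene past 2-fold changed direction under any alternative that was run. The counts of genes past 2-fold changed by over 1.5 times in these cases, except where stated. In large against small control barcodes, the genes past 2-fold lower numbered 0 as reported and 1 (Otc) with large barcodes of 2000 UMIs or more. They numbered 3 (Nags, Otc and Ass1) with ratios centred on the median of genes with at least 100 UMIs, with free RNA taken off, or at 1.5-fold. In the GS_KO library they numbered 1 as reported, 3 after centring and 2 at 1.5-fold. Between the mice, genes past the fold lower numbered 1 in small barcodes and 2 at 1.5-fold. In middle barcodes they numbered 0, against 1 after centring, 3 with free RNA taken off and 5 at 1.5-fold. In large barcodes the count past 2-fold lower stayed within 1.5 times, at 4 as reported and 3 to 5 under the alternatives. The count past 2-fold higher was 0, and 1 (Nags, at 1.56) in barcodes with 1 to 2% nuclear RNA. The cause of these differences was not tested, except that a lower fold calls more genes by construction. Over single genes, 5 of 112 values in large barcodes between the mice had the opposite sign, all of Otc or Nags. Ass1 ran from -1.73 to -0.26 there and Slc25a15 from -1.85 to -0.22. Zonal ends with each marker counted equally, an alternative chosen after seeing the data, gave log2 ratios of 0.82 (control) and 1.21 (GS_KO) for Arg1, 0.42 and 0.73 for Cps1, -0.37 and -0.26 for Slc25a13, and 0.25 and -0.71 for Slc25a15. Nags is limited by depth, with 47 and 69 UMIs in large barcodes. No paired analysis was possible because each group has 1 library.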
